A study of Mus musculus with 6 samples.

Results

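The 37 imprinted genes described here were taken by name from a list drawn up by imprinted domain, and all 37 have a row among the 55341 genes of the count tables. They fall into 15 domains, 5 of which hold 1 listed gene. By their usual annotation 16 are expressed from the maternal chromosome, 19 from the paternal chromosome, and 2 (Grb10 and Gnas) from either, depending on tissue. RNA-seq had been run on cultured mouse cerebellar granule neurons (CGNs) exposed to the vehicle DMSO or to GSK-126, an inhibitor of the histone methyltransferase EZH2, with 3 libraries per group. According to the study's methods, granule neuron precursors were isolated on Percoll gradients from the cerebella of young CD-1 IGS mouse pups, pooled over litters for each replicate, and allowed to differentiate in culture. Every culture received cytosine arabinoside against dividing cells, the inhibitor was added once early in culture, and RNA was taken on the fifth day. The labels give the agent but neither its dose nor the day it was added, and they name the tissue as cerebellum where the titles name CGNs. The counts do not separate the parental alleles, so each value below is the sum over both chromosomes.

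Imprinted genes are transcribed mainly from the copy inherited from a given parent. Most lie in clusters, each under an imprinting control region whose DNA methylation is set in the germ line, and many clusters hold a long noncoding RNA made from the chromosome on which the neighbouring coding genes are silent. EZH2 is the catalytic subunit of Polycomb repressive complex 2, which writes H3K27me3, a repressive mark found on the silent copies of several imprinted genes, and many of the listed genes act in growth control and in the developing brain.

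Gene totals ran from 8058760 to 12047837 counts per library, and a floor of 3 counts corresponded to 0.249 to 0.372 CPM (counts per 1000000 gene counts). A filter on low counts kept 16343 genes, among them 31 of the 37 imprinted genes. The tests were edgeR quasi-likelihood tests across those 16343 genes, once with treatment alone and once with the replicate number added as a block, since libraries with the same number deviated from their group means together. Summed CPM of 10 granule neuron markers ran from 4980 to 7040 with DMSO and from 3480 to 5530 with GSK-126, and none of the 10 was at 0. Among the other cell types checked, the sums of 10 fibroblast and meningeal markers, none at 0, ran from 8460 to 11400 with DMSO and from 11500 to 14300 with GSK-126. Those of 10 astrocyte and Bergmann glia markers ran from 2790 to 8040 and from 2760 to 8360. Marker RNA of other cells was thus present beside that of CGNs, and in such bulk samples fewer cells of a type and less RNA per cell cannot be told apart.

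**Figure D1:**
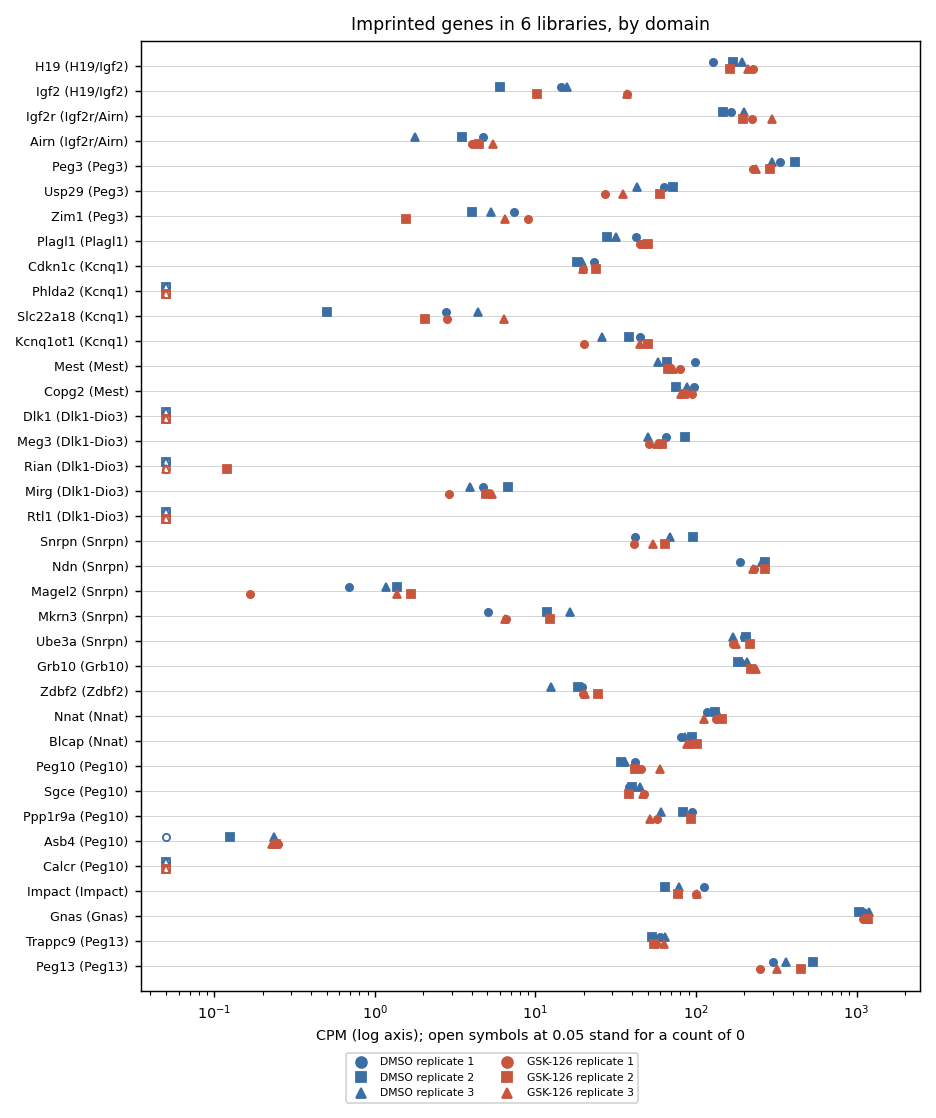
CPM (log axis) of the 37 imprinted genes in each of the 6 libraries, grouped by domain, with DMSO in blue, GSK-126 in red and a symbol per replicate number. Open symbols mark counts of 0, which Phlda2, Dlk1, Rtl1 and Calcr had in all 6 libraries, while Gnas lay at 1030 CPM or above in every library.

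Levels of the listed genes in these cultures spanned from no reads to the 1190 CPM of Gnas. Phlda2, Dlk1, Rtl1 and Calcr had 0 counts in all 6 libraries, which at this depth allows up to 0.249 to 0.372 CPM. Rian, a host of small nucleolar RNAs, had 1 count in GSK-126 replicate 2 and 0 elsewhere. Asb4, which encodes an ankyrin repeat protein, was counted 0, 1 and 2 times under DMSO and 3, 2 and 2 times under GSK-126, at or under the floor in every library, so no fold is given for either gene. Per kilobase of exon, DMSO cultures were highest in Gnas, which encodes the stimulatory G protein alpha subunit, at 99.0 ± 7.52 CPM per kb (SD, n = 3). Peg13, a noncoding RNA from within an intron of Trappc9, followed at 84.8 ± 25.4 and overlapped Gnas in its spread. Nnat, a brain proteolipid, at 70.0 ± 5.19, H19 at 66.5 ± 13.4 and Ndn at 64.4 ± 11.7 CPM per kb came next, with overlapping ranges of mean ± SD. Snrpn had 31.9 ± 12.4, Blcap 28.6 ± 2.47, Peg3 26.2 ± 4.45 and Grb10 21.4 ± 1.48 CPM per kb, and the ranges of neighbours in that order again overlapped. Of the tested genes, Airn, Zim1, Slc22a18, Mirg and Magel2 stayed under 10 CPM in both group means.

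With GSK-126, Igf2 and Igf2r were higher and Peg3 lower once replicate numbers were taken into account, and no other gene of the 37 passed the test. Without the block, 0 of the 31 tested imprinted genes passed an adjusted p of 0.05, against 0% of all 16343 genes, and their edgeR adjusted p-values ran from 0.814 to 0.996. Values given below as block values come from the fit with the replicate block. At an unadjusted p under 0.05 the fit without the block held 4 of them (Igf2, Igf2r, Peg3 and Plagl1), against 6.0% of all genes. With the block, edgeR called 2 of the 31 imprinted genes higher (6.45%), where 2.23% of all genes were called higher, and 1 lower (3.23%), where 1.42% were called lower. The block fit held 9 of the 31 at an unadjusted p under 0.05 (29%), against 16.7% of all genes. These shares rest on 1 to 9 genes, and nothing is read from them about imprinted genes as a group. The median log2 fold change of the 31 imprinted genes was 0.04 without the block (0.02 with it), next to -0.00 over all genes.

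The imprinted genes spread to both sides of 0. Without the block 18 of the 31 had a positive and 13 a negative log2 fold change. The 12 tested genes annotated as maternally expressed had a median of 0.02, with 6 on each side. The 17 tested genes annotated as paternally expressed had a median of 0.03, with 10 positive and 7 negative. In CPM the groups did not overlap for 3 genes with higher values under GSK-126 (Plagl1, Grb10 and Zdbf2; 9.68% of the 31), against 5.43% of all genes, and for 1 with lower values (Peg3, 3.23%), against 5.44%. In the 3 pairs of equal replicate number, 8 imprinted genes had the higher value with GSK-126 each time (25.8% of the 31), against 19.7% of all genes, and 4 the lower (12.9%), against 19.3%. These shares differ from those of all genes by a few genes. The 95% interval of the block fit lay within 0.5 of 0 on the log2 scale for 13 of the 31, from Cdkn1c to Peg13, and for the other 18 it reached further.

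**Figure D2:**
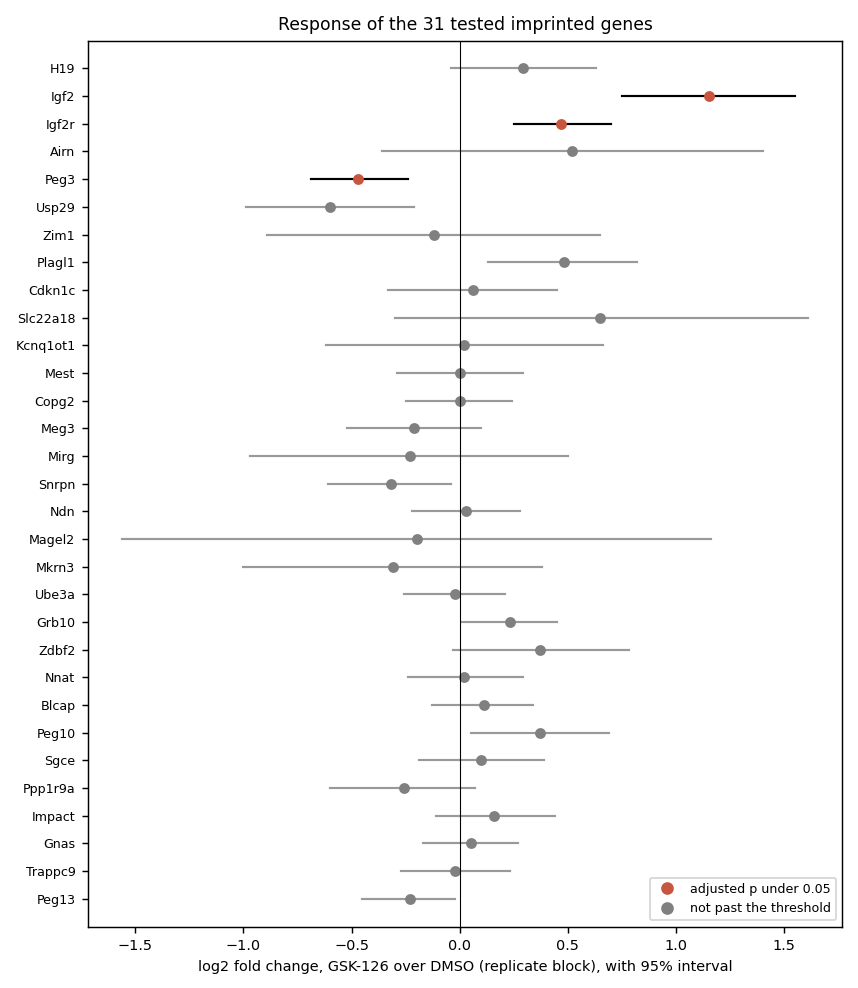
Log2 fold change of GSK-126 over DMSO for the 31 tested imprinted genes in the fit with the replicate block, with points for the estimate and lines for the 95% interval. Igf2, Igf2r and Peg3, in red, passed an adjusted p of 0.05, and the widest interval was that of Magel2, from -1.56 to 1.16.

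The H19/Igf2 domain on chromosome 7 pairs a growth factor with a noncoding RNA. Igf2, the fetal growth factor IGF2, spans chr7:142650766-142666816 on the minus strand (GRCm38). It had 126, 48 and 134 counts in DMSO replicates 1, 2 and 3, or 14.5, 6.0 and 15.8 CPM, and 446, 85 and 326 counts under GSK-126, or 37.1, 10.2 and 37.1 CPM. Replicate 2 was the lowest of its group under both conditions, and its GSK-126 value lay below DMSO replicates 1 and 3, so the groups overlapped while each pair rose, by 1.34, 0.75 and 1.22 on the log2 scale. The means were 12.1 ± 5.34 CPM in DMSO cultures and 28.2 ± 15.5 in GSK-126 cultures (SD, n = 3), a ratio of 2.32. The edgeR log2 fold change was 1.22 (SE 0.511, adjusted p = 0.824) without the block and 1.15 (SE 0.182, adjusted p = 0.00802, 95% interval 0.75 to 1.55) with it. Among the 31 tested genes of the list Igf2 had the largest absolute log2 fold change in both fits. It passed in all 3 block fits that left out a replicate number, at 1.05 to 1.31, and in none of the fits without the block that left out a library.

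RefSeq gives Igf2 several start sites, and their promoter windows (250 bases before to 50 bases after the start) hold 2, 14, 24 and 7 CpG dinucleotides. The richest of them is printed here because Igf2 had the largest response of the listed genes, with CpGs in capitals, 5′ to 3′ on the minus strand, at chr7:142658755-142659054 in RefSeq's GRCm38.p6.
Igf2: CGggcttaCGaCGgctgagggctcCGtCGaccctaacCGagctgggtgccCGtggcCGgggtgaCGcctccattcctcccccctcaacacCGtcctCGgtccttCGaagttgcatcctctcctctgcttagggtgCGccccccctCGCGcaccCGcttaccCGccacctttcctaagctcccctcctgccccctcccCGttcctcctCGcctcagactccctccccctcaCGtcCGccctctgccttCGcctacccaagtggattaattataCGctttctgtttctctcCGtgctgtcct
Over the 46 windows found for 29 of the listed genes the median was 14 CpGs, next to 7 over all 32851 promoter windows. The same windows were searched on both strands for TGCCGC, the core of the sequence read by the imprint protector ZFP57, and for GCCATNTT, the core of the YY1 site. TGCCGC stood in 12 of the 46 windows (26.1%), against 11.6% of all windows, and the Igf2 window above held none while the one with 14 CpGs held 1. GCCATNTT stood in 2 (4.35%), against 6.05%. TGCCGC itself holds a CpG and the listed windows were richer in CpGs, so its shares were not compared at equal CpG content. Several windows belong to the same gene, and these are matches of letters, not measured binding.

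Reads of Igf2 share their place with other transcripts. The annotated Gm49394 covers 62.8% of the Igf2 exons on the same strand and had 2 to 20 counts, and reads that overlap 2 genes were left out of the tables as ambiguous, so the Igf2 counts are uncertain in size. Igf2os, annotated on the opposite strand, overlaps 1.71% of the Igf2 exons. It had 0.242 to 0.413 counts per Igf2 count and a block log2 fold change of 0.95 (edgeR adjusted p = 0.104). Since the strand setting of the counting is not given, the Igf2os counts may include Igf2 reads, though the shared exon part is small. Fibroblast and meningeal markers, from tissue in which Igf2 is known to be strongly expressed, also had a higher sum with GSK-126 in each pair. Their most abundant marker, Col1a1, a collagen chain, had 2160, 2500 and 3170 CPM under DMSO and 3400, 3450 and 3760 under GSK-126, and its block log2 fold change was 0.46 (edgeR adjusted p = 0.0359). Of the 10 markers 2 were called higher with the block and 0 lower. Without the block 8 had a positive and 2 (Pdgfra and Islr) a negative log2 fold change. The 10 endothelial and mural cell markers, of which Cldn5 had 0 counts in DMSO replicate 2, summed to 487 to 756 CPM with DMSO and 837 to 1050 with GSK-126, with 3 called higher. Without the block, 7 of the 9 tested had a positive and 2 (Cdh5 and Kdr) a negative log2 fold change. Acta2, the most abundant, had 274, 419 and 506 CPM with DMSO and 556, 597 and 702 with GSK-126. Cdh5 was lower in each pair, with a block log2 fold change of -0.30 (edgeR adjusted p = 0.240). The 8 choroid plexus and ependyma markers, of which Kl had 0 counts in DMSO replicate 1, summed to 270 to 450 and 341 to 556 CPM, with 1 called higher, and 4 of the 7 tested had a positive and 3 a negative log2 fold change. The part of these cells in the Igf2 result was not tested.

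H19, the noncoding RNA of the maternal chromosome and host of a microRNA, shares its enhancers with Igf2. It stood at 128, 169 and 194 CPM with DMSO and 227, 162 and 210 with GSK-126. The highest value was GSK-126 replicate 1 and the groups overlapped, since GSK-126 replicate 2 was below DMSO replicates 2 and 3. Its log2 fold change was 0.29 (edgeR adjusted p = 0.841, SE 0.190) without the block and 0.29 (adjusted p = 0.374, SE 0.152) with it. The log2 ratio of H19 to Igf2 counts was 3.86 ± 0.861 in DMSO and 3.03 ± 0.828 in GSK-126 cultures (SD, n = 3). That difference of -0.82 had the same sign in the 3 pairs (-0.53, -0.83 and -1.11) and a two-sided exact permutation p of 0.30, where the smallest p that 3 against 3 libraries allow is 0.10.

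**Figure D3:**
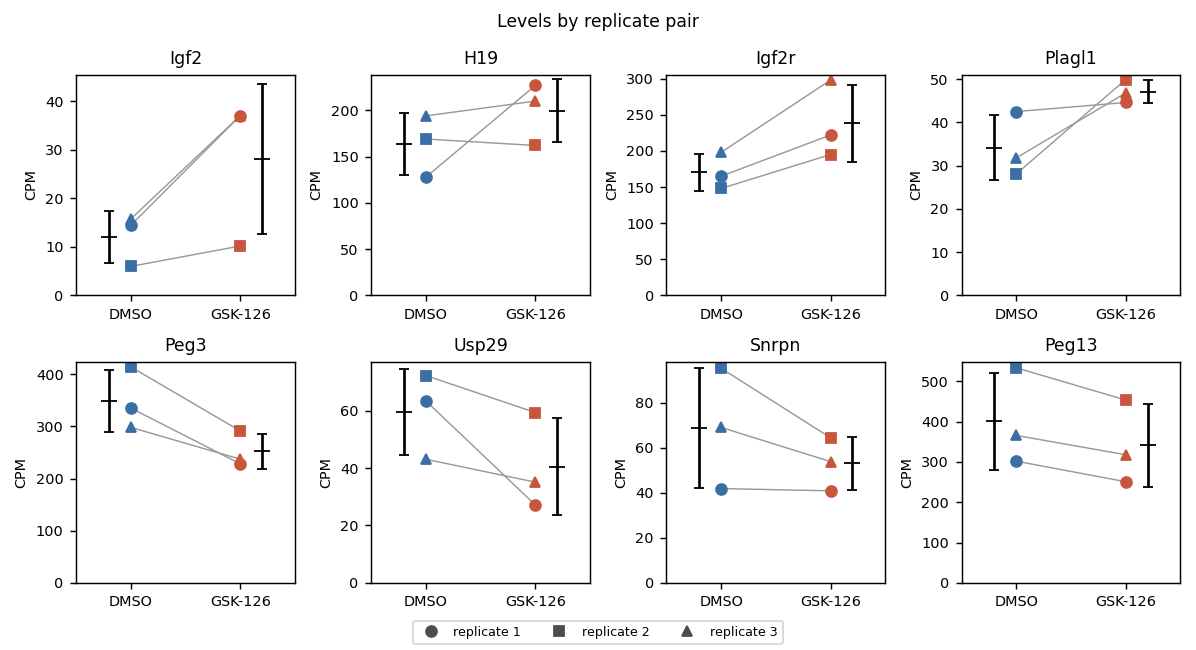
CPM of 8 imprinted genes in DMSO and GSK-126 cultures, with lines joining libraries of equal replicate number and bars for the mean ± SD of each group. Igf2, Igf2r and Plagl1 had the higher and Peg3, Usp29, Snrpn and Peg13 the lower value with GSK-126 in each pair. The group bars overlap for all 8 genes except Peg3 and Plagl1.

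Igf2r encodes the receptor that carries IGF2 to the lysosome and so removes it, and it is maternally expressed in most tissues though from both chromosomes in neurons. At chr17:12682406-12769664 on the minus strand, it had 165, 148 and 198 CPM with DMSO and 222, 195 and 298 with GSK-126. GSK-126 replicate 2 lay just under DMSO replicate 3, and otherwise the GSK-126 values were the higher ones, with pair differences of 0.43, 0.40 and 0.59. The means were 170 ± 25.5 and 238 ± 53.4 CPM (SD, n = 3), a ratio of 1.40. Its edgeR log2 fold change was 0.49 (SE 0.190, adjusted p = 0.814) without the block and 0.47 (SE 0.103, adjusted p = 0.0300) with it. The call was lost without replicate 2 (adjusted p = 0.101) and without replicate 3 (0.320), and held without replicate 1 (0.0142).

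The Igf2r start is a CpG-dense window of 34 CpGs, shown because Igf2r was called higher and read from the minus strand at chr17:12769657-12769956 (GRCm38.p6, CpGs in capitals).
Igf2r: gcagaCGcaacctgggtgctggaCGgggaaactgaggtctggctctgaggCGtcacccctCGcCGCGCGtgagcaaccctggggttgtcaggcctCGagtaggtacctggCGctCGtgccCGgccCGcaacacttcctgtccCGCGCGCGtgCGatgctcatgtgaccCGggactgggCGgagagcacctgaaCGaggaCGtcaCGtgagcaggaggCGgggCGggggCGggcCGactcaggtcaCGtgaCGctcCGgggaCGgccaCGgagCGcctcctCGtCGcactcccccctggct
Airn, the antisense RNA of the paternal chromosome that silences Igf2r in cis in many tissues, starts 28395 bases away inside the Igf2r gene. The window at that start holds 3 CpGs. It covers mostly bases before the start, so it does not describe the CpG content of the wider region. Airn had 4.73, 3.50 and 1.77 CPM with DMSO and 4.0, 4.46 and 5.47 with GSK-126, with overlapping groups and a block log2 fold change of 0.52 (edgeR adjusted p = 0.578). The lowest values were those of DMSO replicates 3 and 2, and the difference was -0.23 in pair 1 and positive in the other two. The log2 ratio of Airn to Igf2r counts was -5.78 ± 0.900 in DMSO and -5.67 ± 0.194 in GSK-126 cultures (SD, n = 3; exact permutation p = 1.00). Strand is not stated for the counting, so Airn reads cannot be told apart from reads of the Igf2r introns.

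The Peg3 domain, also on chromosome 7, held the 1 gene of the 37 that was called lower. Peg3 encodes a paternally expressed zinc finger protein that is abundant in brain, and lies at chr7:6703892-6730431 on the minus strand. Its values were 335, 414 and 298 CPM with DMSO and 228, 291 and 237 with GSK-126, so every GSK-126 value was under every DMSO value. The means were 349 ± 59.3 and 252 ± 33.6 CPM (SD, n = 3), and the pair differences were -0.55, -0.51 and -0.33. Its edgeR log2 fold change was -0.47 (SE 0.169, adjusted p = 0.814) without the block and -0.47 (SE 0.102, adjusted p = 0.0305, 95% interval -0.69 to -0.24) with it. The call held without replicate 1 (0.0266) and was lost without replicate 2 (0.194) and without replicate 3 (0.104).

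Peg3 and its neighbour Usp29, a ubiquitin-specific protease gene that is also paternally expressed, are read in opposite directions from starts 164 bases apart. Their shared window is shown from the Usp29 side because Peg3 was called lower and Usp29 had lower values in each pair, on the plus strand at chr7:6730333-6730632 (GRCm38.p6), with its 17 CpGs in capitals.
Usp29: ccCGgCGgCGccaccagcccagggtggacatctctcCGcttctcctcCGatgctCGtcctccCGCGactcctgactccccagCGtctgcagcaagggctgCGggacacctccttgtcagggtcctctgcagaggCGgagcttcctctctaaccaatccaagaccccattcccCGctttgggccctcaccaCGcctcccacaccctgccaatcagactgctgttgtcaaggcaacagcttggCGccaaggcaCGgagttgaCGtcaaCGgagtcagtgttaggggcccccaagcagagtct
Neither this window nor that of Peg3, with 13 CpGs, held TGCCGC or GCCATNTT. Usp29 had 63.4, 72.3 and 43.1 CPM with DMSO and 27.1, 59.4 and 35.1 with GSK-126. Its pair differences were negative, with the most in pair 1 (-1.22, against -0.28 and -0.30), with GSK-126 replicate 2 above DMSO replicate 3. Its log2 fold change with the block was -0.60 (edgeR adjusted p = 0.104, SE 0.179). Without replicate 1 it was -0.29 (adjusted p = 0.242), so the size rested in large part on pair 1. It did not pass without replicate 2 (-0.75, adjusted p = 0.113) and passed without replicate 3 (-0.75, adjusted p = 0.0315). Of its exons, 14.3% overlap Zim3 on the opposite strand.

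Zim1, the maternally expressed zinc finger gene of the same domain, had 7.38, 4.0 and 5.32 CPM with DMSO and 8.99, 1.57 and 6.49 with GSK-126. It was higher with GSK-126 in pairs 1 and 3 and lower in pair 2, and its block log2 fold change was -0.12 (edgeR adjusted p = 0.910, 95% interval -0.89 to 0.65). The summed CPM of the 3 genes was 414 ± 72.3 in DMSO and 298 ± 46.7 in GSK-126 cultures (SD, n = 3), and the log2 ratio of Usp29 to Peg3 counts differed by -0.14 (exact permutation p = 0.700).

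Granule neuron markers had a lower sum with GSK-126 in each pair. Of the 10, 6 were called lower with the block and 0 higher, with a median block log2 fold change of -0.55. Without the block 9 had a negative and 1 (Pax6) a positive log2 fold change. Pax6 and Reln differed in sign between pairs, with block log2 fold changes of 0.04 and -0.13 (edgeR adjusted p = 0.895 and 0.708). The most abundant of the 10, the transcription factor gene Zic1, had 1340, 1730 and 1460 CPM with DMSO and 1010, 1350 and 1130 with GSK-126 (edgeR block log2 fold change -0.37, adjusted p = 0.0535). Among GABAergic and Purkinje markers, none of 10 at 0, 1 was called lower and the sums were 228 to 292 and 196 to 224 CPM. Of 10 oligodendrocyte lineage, 9 microglial and 8 proliferation markers, 1, 1 and 0 were called higher with the block and 0 lower. Their sums ran from 525 to 797, 251 to 455 and 275 to 407 CPM with DMSO and from 585 to 925, 295 to 635 and 310 to 416 CPM with GSK-126, and among them Atoh1 and Gli1, of the proliferation list, had 0 counts in some libraries. Of 10 astrocyte markers 0 were called, and without the block no marker of any list passed. The part of these cells in the results on Peg3 and its neighbours was not tested.

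**Figure D4:**
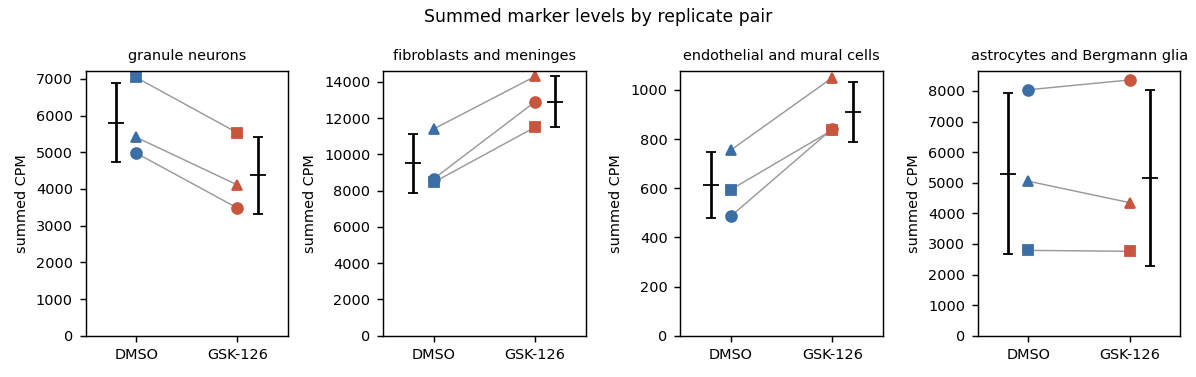
Summed CPM of 4 marker lists in DMSO and GSK-126 cultures, with lines joining libraries of equal replicate number and bars for the mean ± SD. The granule neuron sum was lower with GSK-126 in each pair. The fibroblast and meningeal sum and the endothelial and mural sum were higher in each pair. The astrocyte sum followed the replicate number, from 2790 to 8040 CPM with DMSO.

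Plagl1, Grb10 and Zdbf2 were the genes whose GSK-126 values all lay above their DMSO values. Plagl1, a paternally expressed zinc finger transcription factor gene (chr10:13060504-13131694, plus strand), had 42.5, 28.1 and 31.8 CPM with DMSO and 44.6, 49.9 and 46.8 with GSK-126. The DMSO values were spread and the GSK-126 values close together, and the pair differences ran from 0.07 to 0.82. Its means were 34.1 ± 7.44 and 47.1 ± 2.63 CPM (SD, n = 3). The fits put the log2 fold change at 0.46 (edgeR adjusted p = 0.814, SE 0.178) without the block and at 0.48 (SE 0.158, adjusted p = 0.145) with it. Without replicate 1 the block fit called it (0.69, adjusted p = 0.0177), and without replicate 2 or 3 it did not (0.440 and 0.432).

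Grb10 encodes an adaptor that dampens insulin and IGF receptor signalling, and in neurons it is read from the paternal chromosome. It had 189, 184 and 209 CPM with DMSO and 227, 221 and 236 with GSK-126, a small gap between tight groups. The log2 fold change was 0.23 with and without the block, with an edgeR adjusted p of 0.825 (SE 0.121) and, with the block, of 0.266 (SE 0.10). Zdbf2, a paternally expressed gene that acts in feeding of the newborn, had 19.5, 18.4 and 12.5 CPM with DMSO and 19.7, 24.7 and 20.3 with GSK-126. DMSO replicate 1 and GSK-126 replicate 1 nearly touched, and the block log2 fold change was 0.37 (edgeR adjusted p = 0.349, SE 0.184).

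In the Kcnq1 domain, governed by the paternal antisense RNA Kcnq1ot1, none of the 3 tested genes passed. Kcnq1ot1 had 44.8, 38.3 and 25.8 CPM with DMSO and 20.0, 50.2 and 45.1 with GSK-126, with the lowest and the highest value both under GSK-126. The difference was -1.15 in pair 1, 0.39 in pair 2 and 0.80 in pair 3, with a block log2 fold change of 0.02 (SE 0.290, 95% interval -0.62 to 0.66, edgeR adjusted p = 0.983). Cdkn1c, the growth-restraining cyclin-dependent kinase inhibitor p57, had 23.2, 18.1 and 19.4 CPM with DMSO and 19.8, 24.0 and 19.7 with GSK-126, with overlapping groups and a block log2 fold change of 0.06 (edgeR adjusted p = 0.908). The antisense Gm44732 overlaps 30.7% of the Cdkn1c exons and had 0.487 to 0.856 counts per Cdkn1c count. With the strand setting not given, those counts may include Cdkn1c reads. Slc22a18, a transporter gene, was at 2.77, 0.50 and 4.37 CPM with DMSO and 2.83, 2.05 and 6.38 with GSK-126, higher in each pair, with a block log2 fold change of 0.65 that had an interval of -0.30 to 1.61 (edgeR adjusted p = 0.50).

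The Snrpn domain, which covers the genes of Prader-Willi and Angelman syndromes, held the largest summed level among domains of several listed genes, at 511 ± 73.2 CPM in DMSO cultures and 493 ± 63.4 in GSK-126 cultures (SD, n = 3). Ndn, the MAGE family gene necdin of postmitotic neurons, had 189, 269 and 257 CPM with DMSO and 229, 269 and 227 with GSK-126, with the group ranges nested and a block log2 fold change of 0.03 (SE 0.113, 95% interval -0.22 to 0.28, edgeR adjusted p = 0.926). Ube3a, the ubiquitin ligase gene that neurons read from the maternal chromosome, had 199, 205 and 171 CPM under DMSO and 171, 218 and 178 under GSK-126, and its block log2 fold change was -0.02 (edgeR adjusted p = 0.947). Its antisense partner Snhg14, the RNA that silences it on the paternal chromosome, overlaps its exons and had 0.574 to 0.853 counts per Ube3a count. The strand setting of the counting is not given, so the Snhg14 counts may include Ube3a reads. Snrpn, which encodes the neuronal splicing protein SmN, had 41.9, 95.4 and 69.1 CPM with DMSO and 40.9, 64.5 and 53.9 with GSK-126. DMSO replicate 1 was nearly as low as GSK-126 replicate 1, and the pair differences were -0.03, -0.56 and -0.36, with a block log2 fold change of -0.32 (edgeR adjusted p = 0.233, SE 0.131). Snurf, which shares the Snrpn transcript, had 0 counts in every library. Other genes of the same strand, Snrpn among them, cover 100% of its exons. Its reads were thus left out as ambiguous, and the 0 does not show absence. Of the Snrpn exons, 27.3% overlap Gm38393 or Snurf on the same strand.

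The other paternal genes of that domain had lower counts. Mkrn3, a ring finger gene that restrains puberty, had 5.08, 11.8 and 16.5 CPM with DMSO and 6.58, 12.4 and 6.49 with GSK-126. Magel2, another MAGE family gene, was between 0.167 and 1.69 CPM in all libraries, with both extremes under GSK-126. Their block log2 fold changes were -0.31 for Mkrn3 and -0.20 for Magel2, with edgeR adjusted p-values of 0.690 and 0.916. The log2 ratio of Ndn to Snrpn counts was 1.85 ± 0.340 in DMSO and 2.21 ± 0.240 in GSK-126 cultures (SD, n = 3), higher in each pair (0.31, 0.57 and 0.18) with an exact permutation p of 0.30.

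In the Dlk1-Dio3 domain the maternal noncoding RNAs Meg3 and Mirg were tested, and the paternal coding genes Dlk1 and Rtl1 had no counts. These RNAs come from a long transcribed region in which Rian lies between them. Meg3 had 64.7, 86.0 and 50 CPM with DMSO and 51.2, 61.8 and 57.1 with GSK-126, lower in pairs 1 and 2 and higher in pair 3. The block log2 fold change was -0.21 (SE 0.142, 95% interval -0.52 to 0.10, edgeR adjusted p = 0.501). Mirg, a host of many microRNAs, had 4.73, 6.75 and 3.90 CPM with DMSO and 2.91, 4.94 and 5.35 with GSK-126, with a block log2 fold change of -0.23 (edgeR adjusted p = 0.796). The log2 ratio of Mirg to Meg3 counts differed by -0.02 (exact permutation p = 1.00).

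The Peg10 domain on chromosome 6 joins retrotransposon-derived and ordinary coding genes. Ppp1r9a, which encodes the synaptic actin-binding protein neurabin, took the most reads, at 94.0, 83.6 and 60.4 CPM with DMSO and 57.4, 93.0 and 51.6 with GSK-126. The lowest 2 values were those of GSK-126 replicates 3 and 1, the highest was that of DMSO replicate 1, and its block log2 fold change was -0.26 (SE 0.153, 95% interval -0.60 to 0.07, edgeR adjusted p = 0.432). Peg10, a paternally expressed gene derived from a retrotransposon Gag, had 42.0, 34.3 and 36.3 CPM with DMSO and 45.6, 41.6 and 59.9 with GSK-126. GSK-126 replicate 2 lay just under DMSO replicate 1, each pair difference was positive (0.12, 0.28 and 0.72), and the block log2 fold change was 0.37 (edgeR adjusted p = 0.220, SE 0.146). Sgce, the epsilon-sarcoglycan gene whose loss causes myoclonus dystonia, had 38.5, 39.8 and 45.0 CPM with DMSO and 47.6, 38.1 and 46.8 with GSK-126 (block log2 fold change 0.10, edgeR adjusted p = 0.770). The log2 ratio of Sgce to Peg10 differed by -0.27 between groups with an exact permutation p of 0.200, the smallest of the 11 ratios tested, and after adjustment the 11 lay between 0.917 and 1.00.

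Mest, Nnat and Peg13 head domains in which a paternal gene lies inside or beside a gene with broader expression. Mest, an alpha/beta hydrolase gene, had 98.5, 65.8 and 58.3 CPM under DMSO and 79.9, 66.6 and 71.9 under GSK-126, and its neighbour Copg2, a coatomer subunit gene, had 97.0, 75.4 and 88.5 and then 93.9, 84.5 and 81.2. Their block log2 fold changes were 0.00 and -0.00, with 95% intervals of -0.29 to 0.29 for Mest and -0.25 to 0.24 for Copg2 (edgeR adjusted p = 0.998 and 0.994, SE 0.132 and 0.112). Their ends overlap on opposite strands over 23.1% of the Mest and 17.8% of the Copg2 exons. Nnat had 117, 131 and 136 CPM under DMSO and 134, 145 and 112 under GSK-126, and Blcap, the gene that contains it, had 80.2, 95 and 85.5 and then 91.4, 101 and 88.4. Nnat had a block log2 fold change of 0.02 (edgeR adjusted p = 0.960, SE 0.121) and Blcap, higher in each pair, of 0.11 (edgeR adjusted p = 0.682).

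Peg13 had 302, 534 and 366 CPM under DMSO and 251, 454 and 318 under GSK-126, and Trappc9, the trafficking gene around it, had 60.0, 53.0 and 64.3 and then 56.2, 54.7 and 63.6. Peg13 differed more between replicate numbers than between groups, replicate 2 being the highest in both, and was lower in each pair by similar steps (-0.27, -0.23 and -0.20). Its log2 fold change with the block was -0.23 (edgeR adjusted p = 0.249, SE 0.0969), and that of Trappc9 was -0.02 (edgeR adjusted p = 0.955). The log2 ratio of Peg13 to Trappc9 differed by -0.17, -0.28 and -0.19 in pairs 1, 2 and 3, with an exact permutation p of 0.50 over the unpaired libraries.

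Impact, a brake on the GCN2 stress kinase in neurons, had 112, 64.1 and 78.0 CPM with DMSO and 100, 77.5 and 102 with GSK-126, with overlapping groups and a block log2 fold change of 0.16 (edgeR adjusted p = 0.575, SE 0.127). Gnas had 1100, 1030 and 1190 CPM with DMSO and 1090, 1180 and 1170 with GSK-126. The Gnas block log2 fold change was 0.05 (SE 0.0988, 95% interval -0.17 to 0.27, edgeR adjusted p = 0.857). The opposite strand locus Gm20721 overlaps its exons and had 0.956 to 1.02 counts for each Gnas count, and how strand was handled in the counting is not given in the sources used here, so the level of Gnas is uncertain. In each library 44.8 to 46.7% of reads were counted to no feature. With the strand setting unknown, these need not all lie outside annotated exons.

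The calls on Igf2, Igf2r and Peg3 were made with each tool and normalization that kept the replicate block and all 6 libraries. DESeq2 with the block, the RLE normalization with the block and the block without a low-count filter all called these 3, and the last added Usp29 and Plagl1 among the 33 imprinted genes it tested.

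**Figure D5:**
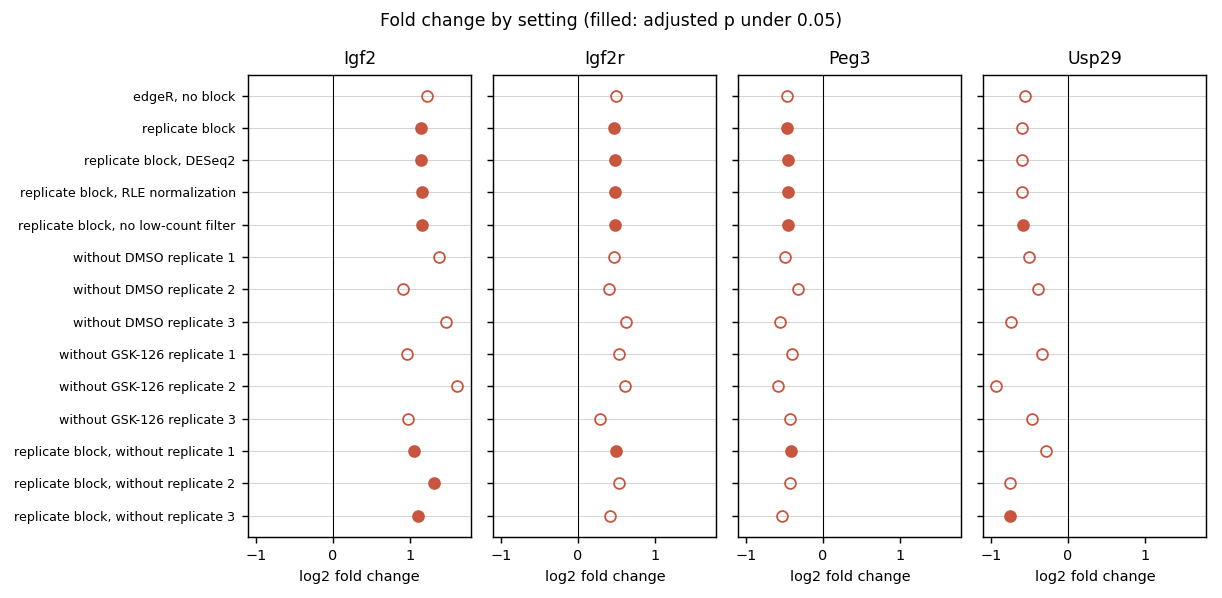
Log2 fold change of Igf2, Igf2r, Peg3 and Usp29 in edgeR without the block, in the fits with the block and with a library or replicate number left out. Filled points mark an adjusted p under 0.05. RLE normalization, DESeq2, limma-voom and no low-count filter without the block, where none of these genes passed, are not shown. The sign of each gene was the same under all settings shown, and Igf2 passed under every setting with the block, including those without a replicate number.

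Beyond the listed genes, 35 other genes of the same domains were looked up, chosen by position and not all known as imprinted. Of these, 23 passed the filter, with a median log2 fold change of 0.16 (19 positive, 4 negative). Dhcr7, the last enzyme of cholesterol synthesis, from the edge of the Kcnq1 domain, was higher with the block, from 84.7, 87.9 and 69.6 CPM to 121, 130 and 95 (log2 fold change 0.51, edgeR adjusted p = 0.0246), and none was lower. Th, Zim2 and Snurf had 0 counts, which for Snurf follows from its overlap with Snrpn. Of 11 imprinted genes of other domains, 0 were called higher and 2 lower, with a median of -0.01. Rasgrf1, a Ras exchange factor gene of neurons, went from 19.3, 20.4 and 12.8 CPM to 10.6, 8.68 and 6.95 (block log2 fold change -0.99, edgeR adjusted p = 0.0214). Cdh15, the M-cadherin gene of muscle and granule neurons, went from 9.11, 22.0 and 10.6 CPM to 1.33, 7.71 and 2.05 (block log2 fold change -2.12, edgeR adjusted p = 0.00451). Both had all GSK-126 values below all DMSO values.

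The genes that maintain imprints did not pass in either fit. Of 18 regulators, among them DNA methyltransferases and zinc finger protectors, 15 passed the filter, 0 were called and the median log2 fold change was -0.12 (5 positive, 10 negative). The most abundant, the chromatin remodeller gene Atrx, had a block log2 fold change of -0.18 (edgeR adjusted p = 0.506). Zfp445 and Trim28 had CPM groups that did not overlap, lower with GSK-126, as 5.44% of all genes had. Zfp445 went from 242, 287 and 241 CPM to 174, 231 and 211 (edgeR block adjusted p = 0.130). Trim28 went from 306, 287 and 296 CPM to 248, 287 and 249 (edgeR block adjusted p = 0.426), with the groups almost touching. The 8 genes known for H3K27me3-dependent imprinting in the early embryo and placenta all passed the filter, with a median of 0.15, 6 positive and 2 negative, and 0 were called. Their summed CPM was 247 in each DMSO library and 242 to 244 with GSK-126. The groups of 2 did not overlap in CPM, in opposite directions. The adaptor gene Gab1, the most abundant of the 8, had 126, 122 and 120 CPM with DMSO and 104, 107 and 95.9 with GSK-126 (block log2 fold change -0.26, edgeR adjusted p = 0.230). Smoc1, which encodes a secreted calcium-binding protein, had 10.8, 10.8 and 13.8 CPM with DMSO and 22.7, 15.2 and 18.3 with GSK-126 (block log2 fold change 0.66, edgeR adjusted p = 0.110).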

How the data were processed

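The data were 6 RNA-seq libraries of poly(A)-selected RNA from CGN cultures, 3 with DMSO and 3 with GSK-126. The deposited values were raw read counts per gene, which the authors had made by trimming, alignment with STAR to GRCm38 (mm10) and counting over exons with the program named HTseq2 count in the study's methods. The submitters' processing notes name FastQC, Trimmomatic 0.38, STAR 2.7.2b, MACS2 2.1 and DESeq2. The strand setting of the counting was not given in the sources used here. The 5 summary rows of each table (reads in no feature, ambiguous and others) entered neither library sizes nor tests, with 44.8 to 46.7% of reads in no feature, 0.913 to 1.11% ambiguous and 9.54 to 10.4% not uniquely aligned. Depth sets the precision, and the floor of 3 counts covers counting error only.

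The 37 imprinted genes, the domains and the other gene lists were chosen with earlier results of these data known. Dcn, Otx2 and Pdgfra each stand in 2 lists. Counts were filtered with filterByExpr, scaled with TMM factors (0.994 to 1.01) and tested with edgeR 4.0.16 (glmQLFit and glmQLFTest, R 4.3.3, two-sided, Benjamini-Hochberg adjustment over all 16343 genes, threshold 0.05), which was tested on simulated data. SEs were the log2 fold change divided by the root of F, and 95% intervals used the t distribution of the fit. CPM are per 1000000 gene counts with TMM factors, given as mean ± SD, and pair differences are on log2 CPM with a prior count of 2. Replicates are numbered in the labels, and the study's methods describe a cultured replicate as pooled litters. No libraries agreed within sampling noise (lowest chi-square per degree of freedom 10.7).

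The replicate numbers were checked for pairing. Deviations from the group means correlated at 0.35 to 0.52 between libraries of the same number and at -0.41 to -0.01 between others, so replicate numbers were treated as pairs, and the fit that has them as a block stands beside the fit without it. The common biological coefficient of variation fell from 0.243 to 0.142 when the block was added. Within-domain count ratios (genes with at least 10 counts in every library) were compared with exact permutation tests over the 6 libraries, two-sided, with Benjamini-Hochberg adjustment over the 11 ratios. Rian to Meg3, Mirg to Rian and Magel2 to Ndn had too few counts.

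All listed genes were named. Full statistics went to genes with an adjusted p under 0.05 in either fit, then to genes whose groups did not overlap, then to the gene of each domain with the most reads. Other genes of the same domains, imprinted genes of other domains and regulators were named where called, and of each marker list described the most abundant gene. Atrx, Zfp445, Trim28, Gab1 and Smoc1, the markers Pax6 and Reln, markers at 0 or with a negative fold change, and genes that overlap listed genes, were added after their values were seen. Alternatives were RLE normalization (edgeR), no low-count filter, DESeq2 1.42.0, limma-voom (limma 3.58.1), the replicate block with each of these except limma-voom, and leaving out each library or replicate number. Gene positions are from the Ensembl identifiers' GRCm38 annotation and promoter windows from RefSeq GRCm38.p6, without those on chromosome 18.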

Additional observations from a re-analysis of the deposited data

How the results depend on the processing

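The median log2 fold change of the listed imprinted genes stayed between -0.01 and 0.07 under every alternative. Without the block, RLE normalization, DESeq2, limma-voom, no low-count filter and leaving out a library all gave 0 imprinted genes, next to 4 at an unadjusted p under 0.05 in edgeR and in DESeq2, 3 in limma-voom, 6 without the low-count filter, and 0 to 6 without a library. Over all genes those settings called 0, except 85 without the low-count filter and 59 in DESeq2. With the replicate block the imprinted genes called were 3 in edgeR, DESeq2 and with RLE and 5 without the low-count filter, and the genes called in all were 597 (edgeR), 674 (DESeq2), 574 (RLE) and 1136 (no low-count filter). Pairing by replicate number thus decided whether any listed imprinted gene was called. Leaving out a replicate number from the block fit gave 1 to 6 imprinted genes and 178 to 704 in all. Without replicate 1 the calls were Igf2, Igf2r, Peg3, Plagl1, Kcnq1ot1 and Snrpn (704 genes in all), without replicate 2 Igf2 alone (178), and without replicate 3 Igf2 and Usp29 (359). The count of imprinted genes without overlap, 4 in all 6 libraries, ran from 4 to 11 with a library left out (9 and 7 without DMSO replicate 1 or 3, and 11 where GSK-126 replicate 2 was left out), where fewer libraries overlap less by construction. Over all genes the share without overlap was 10.9% in all 6 libraries and 15.8 to 33.9% with a library left out, next to 12.9% and 12.9 to 35.5% of the listed genes. The count with the same sign in all pairs, 12, ran from 17 to 19 with a replicate number left out (54.8 to 61.3%, against 55.5 to 61.7% of all genes). RLE against TMM moved the median of all genes by at most 0.0034 on the log2 scale. The sign of the log2 fold change differed from the one without the block in at least 1 setting for 17 of the 31 imprinted genes, without a call under the other sign, and in no setting for the other 14, among them Igf2, Igf2r, Peg3, Usp29, Plagl1 and Snrpn.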
